A study of Rattus norvegicus with 241 samples.

Results

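EPCAM+ cells of NMU-induced mammary tumors were compared between 3 SD rats given TGFBRi and 3 given vehicle. These 6 libraries were picked out by their labels from 241 samples of the series, 202 of them bulk RNA-seq. The study gave rats an inhibitor of the TGFβ receptor around puberty and followed mammary cells and tumors afterwards. Both groups were outbred Sprague Dawley (SD) females that bore tumors when the tissue was taken, so rats without tumors contributed no library here. From 21 days of age the treated group was gavaged with LY2157299 at 75 mg/kg, 2 doses a day over 10 days, and the other group with vehicle on the same schedule. That starting age is the one in the study's methods, and its results text gives a somewhat later one. All 6 rats then received 1 injection of 50 mg/kg of NMU into the abdomen and were killed at day 87 after it. The inhibitor was therefore given before the carcinogen and not while the tumors grew. Tumor cells were stained for CD45 and EPCAM and sorted, and each library came from 1 rat, named here vehicle 1 to 3 and TGFBRi 1 to 3. P-values below measure the spread between these rats only.

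NMU (N-nitroso-N-methylurea) is an alkylating carcinogen that gives rats mammary tumors, often hormone-dependent ones. LY2157299, also called galunisertib, blocks the kinase of the TGFβ type I receptor, TGFBR1. TGFβ ligands bring the type II receptor to TGFBR1, which phosphorylates SMAD2 and SMAD3, and these move with SMAD4 to the nucleus and switch on matrix, feedback and growth-arrest genes. In mammary epithelium the pathway is known for restraining growth of ducts, and in tumors for its part in matrix deposition and in epithelial-mesenchymal transition.

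The 6 libraries held 11572268 to 26593437 reads over genes. EPCAM, the surface protein used for the sort, had a CPM (share of reads, scaled to parts per 1000000) of 149 to 2550, against 12.9 to 30.3 in the CD45+ libraries of the same tumors and 860 to 2880 in luminal cells of the same rats' glands. Fibroblast genes were also very high. The 11 fibroblast markers took 8.37, 6.71 and 1.54% of the reads of vehicle 1, 2 and 3 and 7.43, 7.59 and 2.45% in TGFBRi 1, 2 and 3, and COL3A1, a fibrillar collagen, took the most reads of any gene in 4 of the 6. In the gland luminal libraries of these rats the same markers took 0.0318 to 0.493% of reads, and in the CD45+ libraries 0.0273 to 0.311%. The libraries are therefore described as EPCAM+ tumor libraries and not as pure epithelium. COL1A2 was listed at 0 to 10 normalized read counts beside 51881 to 435694 for its partner chain COL1A1, and the cause was not tested.

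The libraries differed in their epithelial, stromal and immune genes, and 2 of them stood apart. Vehicle 3 had the largest share of epithelial markers, 1.7% of reads, against 0.546 and 0.896% in vehicle 1 and 2 and 0.657, 0.398 and 0.262% in TGFBRi 1, 2 and 3. TGFBRi 3 had the smallest epithelial share, the largest leukocyte share (0.134% of reads) and the largest mast cell share (0.315%). It was the highest of the 6 libraries for 3770 genes and the lowest for 3197 of 12951 genes, and vehicle 3 was the lowest for 3306. The first principal component, with 38% of the variance, set TGFBRi 3 at one end and vehicle 3 at the other, and the second, with 28.1%, set vehicle 3 and, less far out, TGFBRi 3 apart from the other 4. Libraries correlated across genes at 0.873 to 0.943 within vehicle, 0.854 to 0.928 within TGFBRi and 0.826 to 0.948 between the groups. Values without 1 or both of these libraries are given below beside a number of lists and named genes, and the plot of gene lists shows every list median without both.

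**Figure D1:**
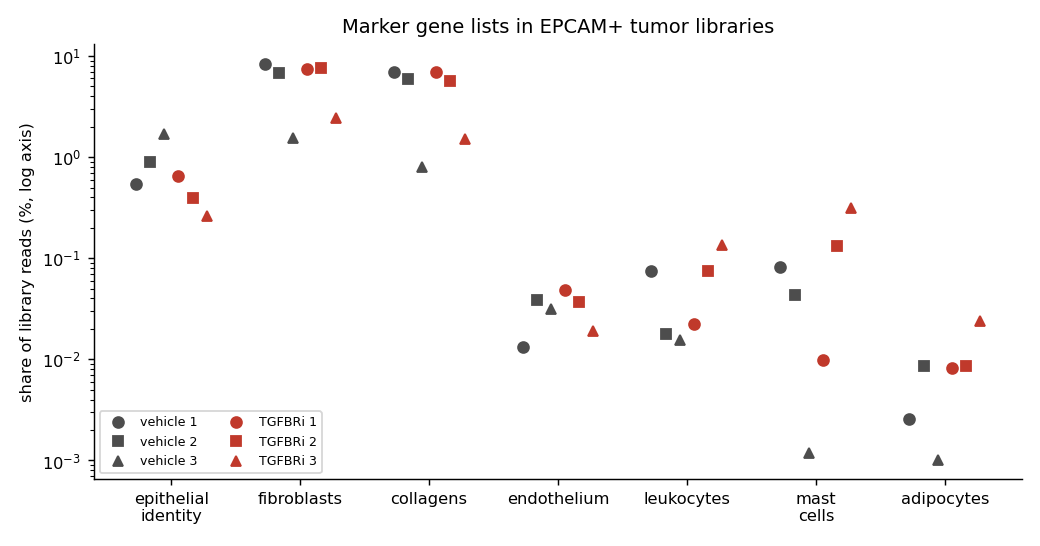
Share of library reads (percent, log axis) taken by 7 marker gene lists in each EPCAM+ tumor library, with vehicle rats in grey and TGFBRi rats in red. Fibroblast genes took 1.54 to 8.37% of reads, and vehicle 3 and TGFBRi 3 (triangles) lie at opposite ends of the epithelial and mast cell lists.

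No gene passed the adjusted test of TGFBRi against vehicle by limma or edgeR. Limma on log2(normalized read count + 1), with Benjamini-Hochberg adjustment, called 0 of 12951 genes (0%) at an adjusted p up to 0.05. The quasi-likelihood test of edgeR on the recovered reads also called 0. At an unadjusted p of 0.05 or less, limma listed 278 genes, of which 137 were higher in TGFBRi (1.06% of genes tested) and 141 lower (1.09%), and edgeR listed 389. Values of the groups did not overlap in 427 genes that were higher (3.3%) and 410 that were lower (3.17%). The median log2 difference over all genes was 0.05. The 95% interval of the difference had a median width of 2.63 on the log2 scale, which limits the size of difference that 3 rats a group can show. An exact permutation test of 1 gene in 3 against 3 rats cannot give a two-sided p below 0.1, the p that groups without overlap reach. Over both directions, the shares of genes listed by limma and of genes without overlap lay below these values of 0.05 and 0.1.

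DESeq2 on the recovered reads called 6 of 12899 genes with an adjusted p (0.0465%), and listed 547 at an unadjusted p of 0.05 or less. AQP5, RMT1, PRKCH and CFAP77 were lower in tumors of TGFBRi rats, and GLYCAM1 and CNR2 were higher. The number depended on single rats. It was 16 without vehicle 1, 7 without vehicle 2, 1 without vehicle 3, 28 without TGFBRi 1, 3 without TGFBRi 2 and 6 without TGFBRi 3. Without TGFBRi 1 only 6125 of 12855 genes had an adjusted p, against 12768 to 12849 genes in the other fits, so the 28 are not on the same footing. None of the 6 genes passed without vehicle 3, and AQP5, RMT1, PRKCH and CFAP77 did not pass without vehicle 2. Of the 6, 4 (AQP5, RMT1, CFAP77 and GLYCAM1) were among 26 called without both vehicle 3 and TGFBRi 3.

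AQP5, a water channel of secretory epithelia, stood at 2506, 10633 and 6811 normalized read counts in vehicle 1, 2 and 3 and at 815, 866 and 1464 in TGFBRi 1, 2 and 3. All TGFBRi values lay below all vehicle values. The log2 difference was −2.48 (95% interval −3.76 to −1.21, limma adjusted p = 1, DESeq2 adjusted p = 0.0121), and DESeq2 called it in 3 of 6 fits that left out 1 rat. RMT1, which RefSeq now names Smim38, a small membrane protein, had the same order of rats among the vehicle libraries. It stood at 3274, 12736 and 7143 in vehicle and at 1407, 678 and 1420 in TGFBRi, a log2 difference of −2.59 (−3.87 to −1.31, DESeq2 adjusted p = 0.0121, called in 3 of 6 leave-out fits).

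PRKCH, the eta form of protein kinase C found mainly in epithelia and T cells, showed the tightest groups. Its normalized read counts were 1328, 811 and 1287 in vehicle and 266, 315 and 272 in TGFBRi, so that the lowest vehicle rat lay above the highest TGFBRi rat. The log2 difference was −1.97 (−2.86 to −1.09) with the lowest unadjusted p of the limma fit, 0.000555, and a DESeq2 adjusted p of 0.018. CFAP77, a protein of ciliary microtubules, was at 96.5, 210 and 145 in vehicle and 12.8, 23.2 and 9.9 in TGFBRi, a log2 difference of −3.23 (−4.74 to −1.72, DESeq2 adjusted p = 0.0103). DESeq2 called PRKCH in 2 of 6 leave-out fits and CFAP77 in 3 of the 5 that gave it an adjusted p.

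The 2 genes that were higher had few reads. GLYCAM1, a mucin-like glycoprotein secreted into milk, had 0 reads in each vehicle library and 143 reads over the TGFBRi libraries, or 2.9, 98.2 and 43.4 normalized read counts in TGFBRi 1, 2 and 3. Against a floor of 3 reads over the vehicle group, its share of reads was at least 63.5-fold higher in the TGFBRi group, with a DESeq2 adjusted p of 0.0103. This bound is for reads pooled over each group. TGFBRi 1 held only 2 of the 143 reads, so the bound rests on TGFBRi 2 and 3 and does not describe each rat. DESeq2 called GLYCAM1 in 2 of the 5 leave-out fits that gave it an adjusted p. CNR2, the cannabinoid receptor of immune cells, had 3, 4 and 1 reads in vehicle and 12, 66 and 96 in TGFBRi (log2 difference 4.01, 1.83 to 6.19, DESeq2 adjusted p = 0.0121), and DESeq2 called it in 1 of the 5 leave-out fits that gave it an adjusted p.

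**Figure D2:**
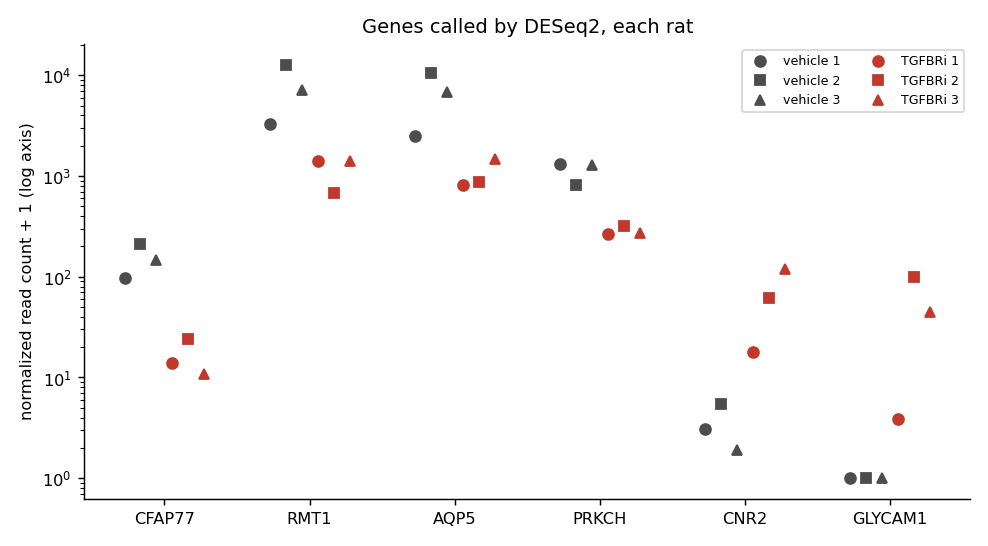
Normalized read count plus 1 (log axis) of the 6 genes called by DESeq2, for each vehicle rat (grey) and TGFBRi rat (red). The groups do not overlap in any of the 6, and GLYCAM1 lies at 0 counts in all 3 vehicle rats.

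In bulk samples fewer cells of a type and less RNA per cell cannot be told apart, and this holds for every gene list below. Leaving out 1 rat moved the median of 33 of 34 lists by over 1.5 times or turned it. Genes of epithelial identity were lower in TGFBRi in 14 of 14 tested members, with a median log2 difference of −0.84, but none passed the adjusted limma test. Of the 14, 2 were at an unadjusted p of 0.05 or less, beside 1.09% of all genes in that direction, and 3 had groups that did not overlap, beside 3.17%. CLDN4, a tight junction claudin, was at 31508, 45365 and 42751 normalized read counts in vehicle and 16838, 13424 and 8567 in TGFBRi (log2 difference −1.66, −2.84 to −0.48). KRT18, a keratin of simple epithelia, was at 13771, 18067 and 35567 in vehicle and 14514, 6605 and 5034 in TGFBRi, where TGFBRi 1 lay above vehicle 1. EPCAM itself overlapped, at 7256, 7997 and 31169 in vehicle and 8797, 6085 and 2711 in TGFBRi (log2 difference −1.21, −2.75 to 0.32). Without vehicle 3 and TGFBRi 3 the median of the list was −0.15, and CLDN4, KRT18 and EPCAM differed by −1.33, −0.69 and −0.06 on the log2 scale. The median ran from −1.25 without vehicle 1 to −0.54 without vehicle 3.

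Leukocyte genes went the other way. All 18 tested members were higher in TGFBRi, with a median log2 difference of 1.27, but 0 passed the adjusted limma test and 2 were at an unadjusted p of 0.05 or less, beside 1.06% of all genes. The median ran from 0.59 without vehicle 3 to 2.33 without vehicle 1, and was −0.04 without vehicle 3 and TGFBRi 3. PTPRC, which encodes CD45, was at 525, 64.1 and 65.9 normalized read counts in vehicle and 64.2, 716 and 935 in TGFBRi. Vehicle 1 and TGFBRi 2 and 3 were therefore the high rats, across both groups. Mast cell genes, a list added after seeing the data, had the widest spread. Their median was 2.36 over 10 members, 10 of 10 higher, and −0.81 without vehicle 3 and TGFBRi 3. CPA3, the mast cell carboxypeptidase, was at 1431, 850 and 24.8 in vehicle and 211, 4035 and 12106 in TGFBRi. The CD45+ libraries of the same tumors did not share this order. Mast cell genes took 0.0563, 0.518 and 0.0568% of reads there in vehicle and 0.0599, 0.0178 and 0.0272% in TGFBRi. CPA3 had a CPM there of 119, 1370 and 39.9 in vehicle and 161, 57.9 and 57.5 in TGFBRi.

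The B cell gene MS4A1, which encodes CD20, was at 3.6, 0 and 0 normalized read counts in vehicle and 14.3, 18.5 and 95.5 in TGFBRi (log2 difference 4.21, 1.75 to 6.66, limma unadjusted p = 0.00339). FCER2, the low-affinity IgE receptor of B cells, was at 7.9, 0 and 2.6 in vehicle and 31.4, 28.7 and 42.2 in TGFBRi. These were the 2 of 9 B cell genes whose groups did not overlap, beside 3.3% of all genes. Of the 9 genes 7 were higher and 2 lower, BANK1 (−0.76) and CXCR5 (−0.28). The list was added after seeing the data, so its counts cannot serve as a test. Together the 9 took 0.00176% of the reads or less in any library. In the CD45+ cells of the same tumors MS4A1 had a CPM of 4.97, 3.42 and 0 in vehicle and 0, 40.7 and 162 in TGFBRi. CNR2 had a CPM there of 0, 0 and 2.33 in vehicle and 2.14, 13.7 and 1.53 in TGFBRi, and FCER2 one of 0, 0 and 0.817 in vehicle and 0, 0 and 29.1 in TGFBRi. The rat with the highest value was therefore TGFBRi 3 for MS4A1 and FCER2 and TGFBRi 2 for CNR2. In gland luminal cells of the same rats FCER2 had a CPM of 0.878 to 2.42 in vehicle and 2.72 or more in TGFBRi. In the tumor libraries FCER2 had a CPM of 2.32 or less. MS4A1 had a CPM of 0.144 or less in those gland cells. Which cells gave the FCER2 reads of the tumor libraries was not tested.

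Fibroblast genes overlapped between the groups. The median log2 difference over 11 members was 0.44, with 9 higher and 2 lower and 0 non-overlapping, and it was −0.45 without vehicle 3. COL3A1 was at 848486, 545245 and 33504 normalized read counts in vehicle and 589895, 476042 and 157677 in TGFBRi (log2 difference 0.50, −2.15 to 3.16), so that the 2 libraries that stand apart were the lowest of each group, and the difference was −0.94 without vehicle 3 and −0.20 by DESeq2. DCN, a small proteoglycan of connective tissue, was at 163550, 118117 and 20594 in vehicle and 58904, 148573 and 112688 in TGFBRi, and its difference of 0.44 was −0.48 without vehicle 3. Endothelial genes had a median of 0.48 and basal and myoepithelial genes one of 0.44, and in neither list was a member at an unadjusted p of 0.05 or less. Without 1 rat the endothelial median ran from 0.29 (vehicle 1) to 1.03 (vehicle 2) and the basal one from 0.18 (TGFBRi 3) to 0.95 (TGFBRi 2). KRT14, a basal keratin, was at 2866, 4328 and 2332 in vehicle and 3456, 2740 and 21955 in TGFBRi, where only TGFBRi 3 was high.

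**Figure D3:**
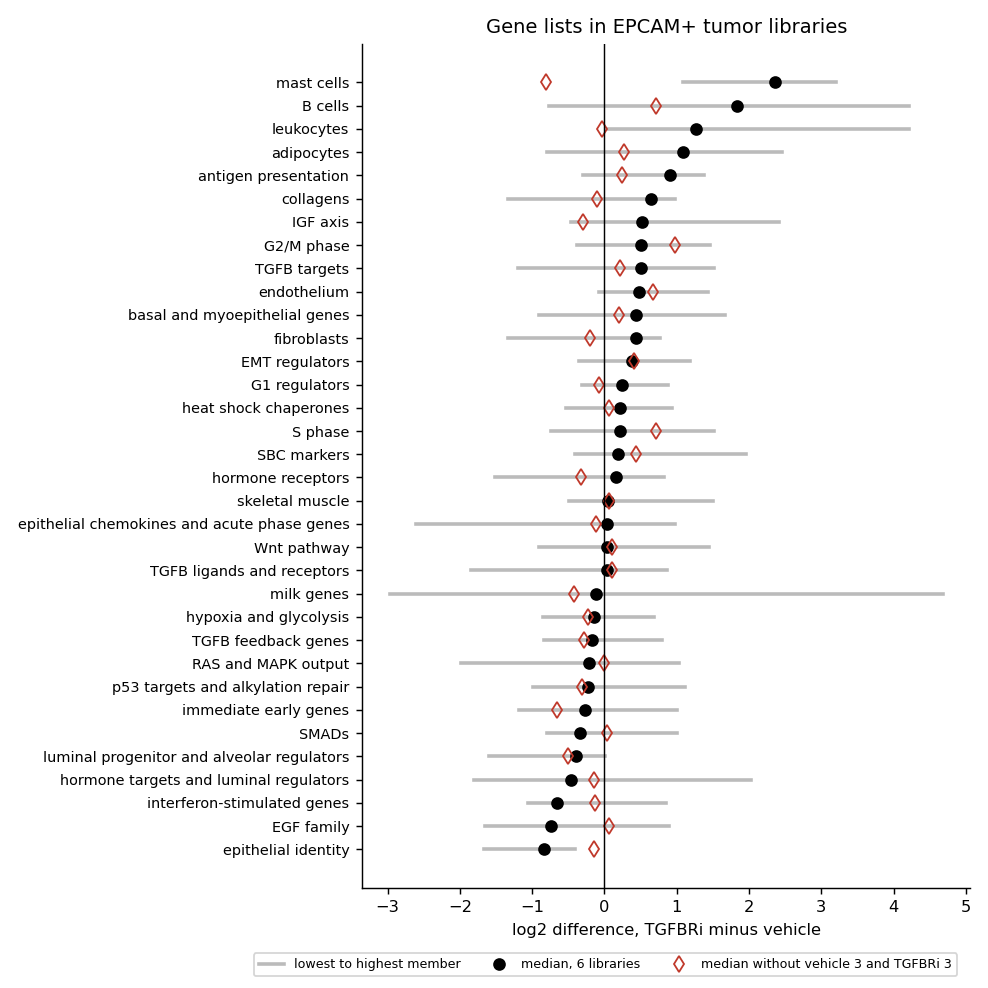
Median log2 difference, TGFBRi minus vehicle, of 34 gene lists (black points), with the range over members (grey bars) and the median without vehicle 3 and TGFBRi 3 (red diamonds). The leukocyte and mast cell medians of 1.27 and 2.36 became −0.04 and −0.81 without these 2 rats, while the G2/M median of 0.51 became 0.98.

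Genes of the TGFβ pathway showed no difference that passed the adjusted limma test. Of 41 tested genes over ligands, receptors, SMADs, feedback genes and targets, 23 were higher and 18 lower, with a median log2 difference of 0.20 beside 0.05 for all genes. One, CYR61, was at an unadjusted p of 0.05 or less, or 2.44% of the 41 against 1.06% of all genes. Receptors differed little between the groups, with wide intervals. TGFBR1, the target of the inhibitor, was at 458, 245 and 296 normalized read counts in vehicle and 251, 412 and 211 in TGFBRi, a log2 difference of −0.20 (−1.25 to 0.84). The ligands TGFB1, TGFB2 and TGFB3 differed by −0.03, 0.25 and −0.29. Leaving out 1 rat turned TGFB1 (0.29 without TGFBRi 3) and took TGFB2 to 0.05 (vehicle 3). TGFB3 ran from −0.61 (vehicle 3) to −0.01 (vehicle 2). ACVR1B, an activin type I receptor, had the largest difference of the receptors (−1.84, −4.31 to 0.63), set by a value of 2.5 in TGFBRi 3 against 45.3 to 161 in the other 5 rats, and it was −0.49 without that rat.

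Among the SMADs, SMAD3 and SMAD1 had groups that did not overlap, in opposite directions, or 2 of 5 members beside 3.3% of all genes higher and 3.17% lower. SMAD3, which carries the TGFβ signal, was at 485, 336 and 187 normalized read counts in vehicle and 705, 489 and 722 in TGFBRi (log2 difference 1.01, −0.03 to 2.04). SMAD1, which carries the BMP signal, was at 2295, 1843 and 1680 in vehicle and 1671, 1143 and 784 in TGFBRi (−0.75, −1.70 to 0.20). Both intervals include 0, and without vehicle 3 and TGFBRi 3 the SMAD3 difference was 0.54. SMAD7, the inhibitory SMAD that TGFβ itself induces, was at 82.2, 216 and 83.8 in vehicle and 168, 139 and 335 in TGFBRi (0.79, −0.52 to 2.11), a difference that ran from 0.42 without TGFBRi 3 to 1.25 without vehicle 2. SMAD1 differed by −0.48 without TGFBRi 3. The 8 feedback genes had a median of −0.17, with 3 higher and 5 lower, which ran from −0.42 without vehicle 3 to −0.07 without vehicle 2.

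The 17 TGFβ targets had a median log2 difference of 0.50, with 13 higher and 4 lower. The median was 0.28 without vehicle 3, 0.77 without TGFBRi 3 and 0.21 without both. CYR61, a secreted matrix protein also known as CCN1, was at 420, 829 and 436 normalized read counts in vehicle and 1048, 2025 and 1646 in TGFBRi (log2 difference 1.51, 0.51 to 2.51, limma unadjusted p = 0.00725). Every TGFBRi rat lay above every vehicle rat. ITGB6, an integrin chain that activates latent TGFβ, was the 1 target without overlap in the other direction, at 512, 507 and 601 in vehicle and 231, 387 and 366 in TGFBRi (−0.75, −1.66 to 0.16). Over all genes 3.3% were higher and 3.17% lower without overlap. FN1, which encodes fibronectin, was at 27718, 19816 and 2349 in vehicle and 36973, 32580 and 19055 in TGFBRi (1.38, −0.55 to 3.32), with vehicle 3 again the low rat, and the difference was 0.28 without it. FN1 and other targets are also made by fibroblasts, whose markers overlapped between the groups with a median of 0.44, and the part of these cells in the result was not tested.

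**Figure D4:**
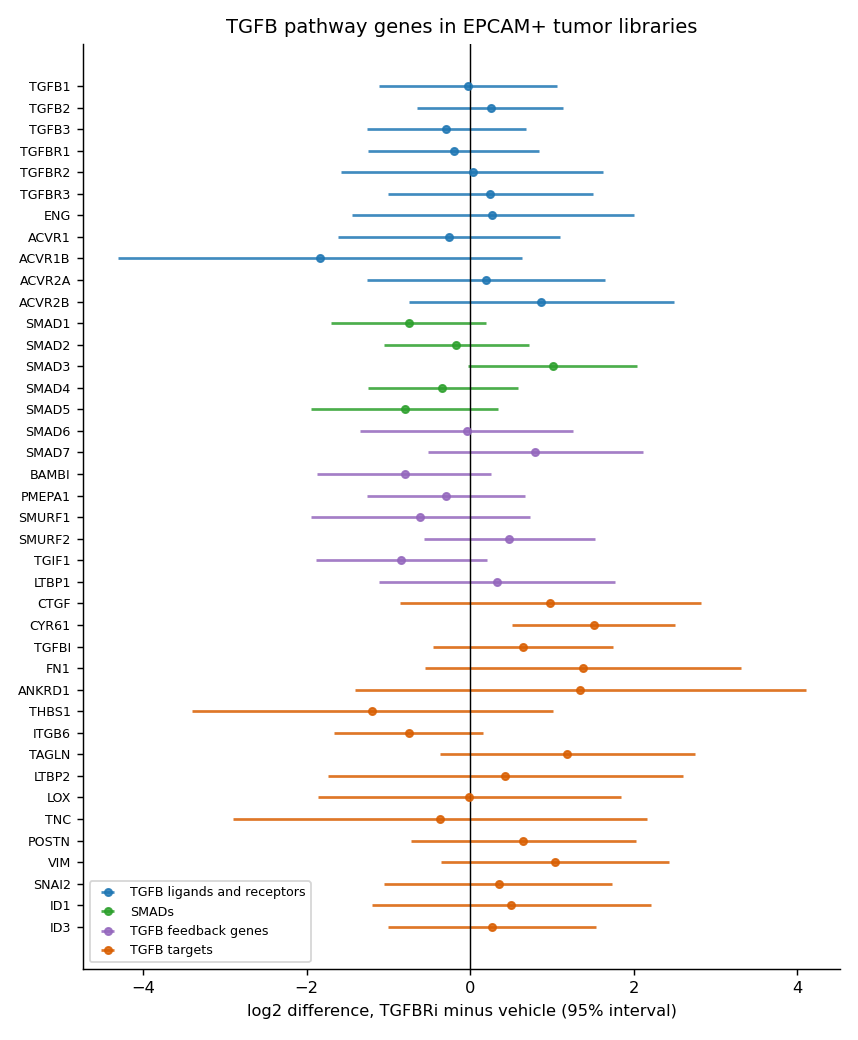
Log2 difference, TGFBRi minus vehicle, of 40 of the 41 TGFβ pathway genes, each with its 95% interval from limma and coloured by role. The interval of 1 gene, CYR61 (0.51 to 2.51), does not include 0.

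Regulators of epithelial-mesenchymal transition were higher in 8 of 9 members, with a median log2 difference of 0.38 and 0 at an unadjusted p of 0.05 or less. TWIST1, a mesenchymal transcription factor, was at 902, 916 and 429 normalized read counts in vehicle and 962, 1301 and 3347 in TGFBRi (log2 difference 1.19, −0.03 to 2.41). PRRX1 and ZEB2 also had groups that did not overlap, with differences of 0.98 and 0.93 and intervals that include 0. These 3 of 9 members without overlap stand beside 3.3% of all genes in that direction. Without vehicle 3 and TGFBRi 3 TWIST1 differed by 0.30, PRRX1 by 0.58 and ZEB2 by 1.29, but ZEB2 differed by 0.60 without TGFBRi 2. Fibroblast markers took 1.54 to 8.37% of reads in these libraries, and the part of fibroblasts and leukocytes in these differences was not tested. A list of 5 genes marking secretory basal cells, a rare basal population of these glands, had a median of 0.19, from −0.23 without vehicle 3 to 0.44 without TGFBRi 1. S100A4, one of them and also made by fibroblasts and leukocytes, was at 870, 3038 and 791 in vehicle and 4877, 2817 and 9011 in TGFBRi (1.96, 0.55 to 3.37), while PROCR differed by −0.40, in a direction that turned without TGFBRi 3 (0.29) and on the recovered reads with DESeq2 (0.12).

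Hormone receptor genes overlapped between the groups. ESR1, the estrogen receptor, was at 38.6, 33.7 and 140 normalized read counts in vehicle and 44.2, 120 and 48.4 in TGFBRi, a log2 difference of 0.16 (−1.53 to 1.84). PGR, the progesterone receptor and a target of it, was at 120, 171 and 409 in vehicle and 94.2, 123 and 85.6 in TGFBRi (−1.02, −2.30 to 0.26). The prolactin receptor PRLR differed by −1.51 (−3.27 to 0.26). Without vehicle 3 these differences were −0.52 for PGR and −0.82 for PRLR. ESR1 turned direction without vehicle 1 (−0.12), vehicle 2 (−0.21) or TGFBRi 2 (−0.29), and by DESeq2 (−0.05).

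Of the hormone targets and luminal regulators, 9 of 11 were lower in TGFBRi, with a median log2 difference of −0.46 and 1 at an unadjusted p of 0.05 or less, beside 1.09% of all genes. GATA3, a transcription factor of luminal cells, was at 1056, 1117 and 1929 normalized read counts in vehicle and 378, 633 and 221 in TGFBRi (log2 difference −1.81, −2.89 to −0.72, limma unadjusted p = 0.00405). The groups did not overlap. FOXA1, its partner at estrogen receptor sites, was at 237, 615 and 1658 in vehicle and 291, 479 and 85.6 in TGFBRi, where they did (−1.44, −3.20 to 0.32). Luminal progenitor and alveolar regulators were lower in 11 of 12 members, with a median of −0.39, among them EHF, an epithelial ETS factor (−1.60, −3.06 to −0.14). Without vehicle 3 and TGFBRi 3 the differences of GATA3, FOXA1 and EHF were −1.15, −0.03 and −0.50. Of the luminal progenitor and alveolar regulators, 3 of 12 had groups that did not overlap, all lower, beside 3.17% of all genes. Without 1 rat the median of the hormone targets ran from −0.70 (vehicle 1) to −0.33 (TGFBRi 3). That of the luminal progenitor and alveolar regulators ran from −0.46 (TGFBRi 2) to −0.29 (TGFBRi 1). Without vehicle 3 and TGFBRi 3 these medians were −0.15 and −0.50. The epithelial identity list was lower in the same rats, with a median of −0.84, and its part in these differences was not tested.

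Milk genes were split, with 5 of 14 higher, 9 lower and a median log2 difference of −0.12 that turned without vehicle 2 (0.15) and without TGFBRi 1 (0.01). Of the 14, GLYCAM1 and CSN2 were higher at an unadjusted p of 0.05 or less, beside 1.06% of all genes. CSN2, which encodes beta-casein, had a limma unadjusted p of 0.0135, at 8.6, 0 and 3.4 normalized read counts in vehicle and 17.1, 38 and 37.2 in TGFBRi. The abundant caseins overlapped between the groups. CSN3, kappa-casein, was at 13530, 39119 and 30328 in vehicle and 10211, 22865 and 24616 in TGFBRi (−0.49, −1.88 to 0.89), and CSN1S1 differed by 0.46 (−0.78 to 1.70). Without 1 rat CSN3 ran from −0.94 (vehicle 1) to −0.09 (TGFBRi 1) and CSN1S1 from 0.00 (TGFBRi 2) to 0.83 (vehicle 3).

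Cell cycle genes were mostly higher in TGFBRi, without a gene that passed the adjusted limma test. Of 48 tested G2/M genes 42 were higher, with a median log2 difference of 0.51, 2 at an unadjusted p of 0.05 or less, beside 1.06% of all genes, and 5 with groups that did not overlap, beside 3.3%. CDK1, the mitotic kinase, was at 294, 205 and 426 normalized read counts in vehicle and 622, 637 and 446 in TGFBRi (log2 difference 0.93, −0.05 to 1.90). NDC80, a kinetochore protein, was at 26.4, 30.4 and 53.9 in vehicle and 78.5, 118.6 and 102.9 in TGFBRi (1.46, 0.09 to 2.83), and UBE2C, the ubiquitin-conjugating enzyme of mitotic exit, at 114, 161 and 305 against 328, 446 and 378 (1.10, 0.00 to 2.19). MKI67, the proliferation marker, overlapped, at 87.2, 37.1 and 368 in vehicle and 151, 455 and 286 in TGFBRi (1.34, −0.46 to 3.13), and its difference ran from 0.59 without vehicle 2 to 2.23 without vehicle 3. The 37 S phase genes had a median of 0.21, with 27 higher, and the 16 G1 regulators one of 0.25. Without vehicle 2 the medians of the G2/M and S phase lists were 0.21 and −0.09, and over the fits that left out 1 rat they ran from 0.21 to 0.75 and from −0.09 to 0.55. Without vehicle 3, the vehicle rat with the highest G2/M genes, and TGFBRi 3 the medians of the G2/M and S phase lists were 0.98 and 0.72, and that of the G1 list −0.08. Genes of 1 phase move together across rats, so these counts are not counts of independent genes.

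Of 54 tested growth factor genes over EGF, IGF, Wnt and RAS lists, 2 were higher and 1 lower at an unadjusted p of 0.05 or less, beside 1.06% and 1.09% of all genes. Of the EGF receptors and ligands 10 of 12 were lower, with a median log2 difference of −0.74, which was −0.13 without TGFBRi 3, −1.16 without TGFBRi 1 and 0.07 without vehicle 3 and TGFBRi 3. HBEGF, a ligand of EGFR, was at 2233, 3204 and 5740 normalized read counts in vehicle and 2538, 1210 and 429 in TGFBRi (log2 difference −1.65, −3.10 to −0.20), which was −0.61 without vehicle 3 and TGFBRi 3. IGF2, a fetal growth factor, was at 17.2, 13.5 and 23.1 in vehicle and 156, 35.2 and 166 in TGFBRi (2.41, 0.66 to 4.16), while the 11 genes of the IGF axis had a median of 0.52 that was −0.32 without vehicle 3. WNT6 was at 172, 205 and 246 in vehicle and 618, 259 and 1125 in TGFBRi (1.45, 0.21 to 2.70), and differed by 0.96 without TGFBRi 3. The outputs of RAS and MAPK signaling had a median of −0.21, with 6 of 15 higher, and one of 0.04 without TGFBRi 3. HRAS, the gene that NMU is known to mutate in rat mammary tumors, differed by 0.13. DUSP6, a phosphatase induced by ERK, was at 7832, 8390 and 5437 in vehicle and 11538, 9652 and 11431 in TGFBRi (0.61, −0.41 to 1.63), without overlap.

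Among targets of p53 and genes of alkylation repair, 9 of 14 were lower, with a median log2 difference of −0.23 that ran from −0.43 without TGFBRi 1 to 0.03 without TGFBRi 2. MDM2, the p53 ubiquitin ligase and its target, was at 4312, 3142 and 4475 normalized read counts in vehicle and 1940, 2468 and 1617 in TGFBRi (log2 difference −0.99, −1.92 to −0.05). It was the 1 member without overlap, beside 3.17% of all genes in that direction, whereas CDKN1A, another p53 target, did (−0.26, −1.33 to 0.81). MGMT, which removes the base damage made by agents such as NMU, was at 279, 434 and 136 in vehicle and 318, 330 and 1634 in TGFBRi (1.12, −0.42 to 2.67). Only TGFBRi 3 was high, and the difference was −0.10 without it and vehicle 3.

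Among genes with a mean of at least 50 reads, 63 higher and 84 lower ones had both an unadjusted limma p of 0.05 or less and groups that did not overlap. The 10 with the largest log2 differences in the higher direction ranged from 2.20 to 3.70. They were APLNR, LOC310926, METRN, STMN2, IGF2, CFD, ESPL1, SOX18, FAM111A and GCNT1. APLNR, the apelin receptor, and SOX18 are genes of endothelium. APLNR was at 48.6, 95.6 and 0 normalized read counts in vehicle and 344, 175 and 171 in TGFBRi, and SOX18 at 15, 82.1 and 28.2 in vehicle and 136, 201 and 176 in TGFBRi. The summed reads of the endothelial list overlapped, at 0.0133 to 0.0382% in vehicle and 0.0191 to 0.0482% in TGFBRi. Of its 10 members 8 were higher and 2 lower. TEK was the 1 member without overlap (log2 difference 1.09, −0.06 to 2.23), beside 3.3% of all genes. CFD, which encodes the adipocyte protease adipsin, was at 282, 138 and 14.5 in vehicle and 305, 341 and 830 in TGFBRi. FABP4, a fatty acid binding protein of adipocytes and endothelium, differed by 2.46 (0.45 to 4.47). ADIPOQ, which defines adipocytes, was low, at 2.6 to 19.8 in all 6 rats, and differed by 0.74. Of 5 adipocyte genes tested 4 were higher, with a median of 1.09, and CIDEC was lower (−0.80). Of the 5, 2 were higher at an unadjusted p of 0.05 or less, beside 1.06% of all genes. The part of adipocytes in these differences was not tested. ESPL1, the separase that parts sister chromatids, was at 40.7, 18 and 8.6 in vehicle and 91.3, 82.5 and 138 in TGFBRi. Without vehicle 3 the log2 difference of APLNR went from 3.70 to 1.66, that of METRN from 3.20 to 1.64, that of STMN2 from 3.10 to 1.60 and that of CFD from 2.38 to 1.16. Without TGFBRi 3 as well, METRN differed by 0.84, CFD by 0.70 and FABP4 by 1.06.

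The 10 genes with the largest differences in the lower direction ranged from −3.23 to −2.25 on the log2 scale. They were CFAP77, TMPRSS13, ATP6V1B1, KCTD8, RBP7, FGF21, RMT1, AQP5, RSPO3 and MAPK13. RBP7, a retinol-binding protein, was at 1132, 3389 and 1878 normalized read counts in vehicle and 167, 252 and 728 in TGFBRi (log2 difference −2.62, −3.98 to −1.26). DESeq2 gave it an adjusted p of 0.132 with all 6 rats and called it in 2 of 6 leave-out fits. FGF21, a circulating fibroblast growth factor of metabolism, was at 110, 56.2 and 124 in vehicle and 17.1, 13 and 12.4 in TGFBRi (−2.62, −4.16 to −1.09). ATP6V1B1, a subunit of the proton pump, was at 129, 187 and 217 in vehicle and 4.3, 51 and 71.9 in TGFBRi, and RSPO3, which strengthens Wnt signals, at 52.9, 111 and 165 in vehicle and 4.3, 41.7 and 38.4 in TGFBRi. TMPRSS13 and MAPK13 rested in part on TGFBRi 3, with log2 differences that went from −2.83 to −1.86 and from −2.25 to −1.48 without it, and to −1.22 and −0.99 without vehicle 3 as well. Without TGFBRi 1 ATP6V1B1 differed by −1.50 and RSPO3 by −1.29. All 20 kept their direction in each fit that left out 1 rat. Groups chosen for not overlapping fix this outcome in advance, so it tells nothing about stability.

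**Figure D5:**
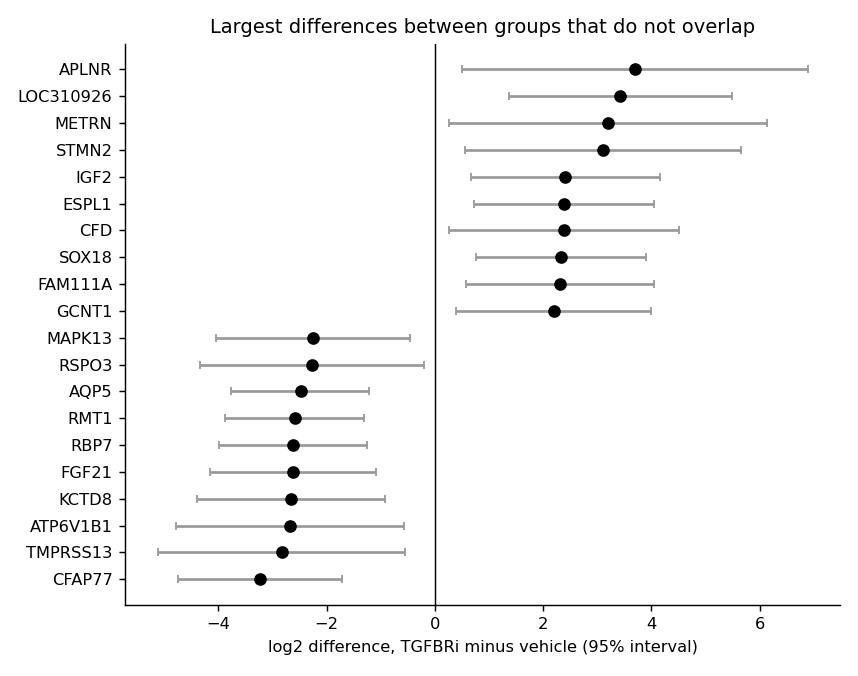
Log2 difference, TGFBRi minus vehicle, of the 10 largest differences in each direction, with 95% intervals from limma. The genes were chosen for an unadjusted p of 0.05 or less and groups without overlap, so that no interval includes 0, and all had an adjusted p of 1.

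Luminal cells sorted from the glands of the same 6 rats allowed a test of whether the treatment difference in the tumor was unlike that in the gland. Limma called 0 of 12617 genes (0%) for this interaction. At an unadjusted p of 0.05 or less it listed 1464, beside 278 of 12951 genes in the tumor alone and 2287 of 14128 in the gland alone. With edgeR 0 were called and 1709 listed. In the gland alone limma called 30 of 14128 genes, 26 higher and 4 lower in TGFBRi. The lack of interaction calls therefore does not show that the differences in tumor and gland were alike. RBP7 was lower with TGFBRi in both, at 3102, 7053 and 1182 normalized read counts in vehicle glands and 687, 761 and 760 in TGFBRi glands (log2 difference −2.01, −3.06 to −0.95, limma adjusted p in the gland = 0.0722). For RBP7 all TGFBRi glands lay below all vehicle glands. Adipocyte markers did so too, at 0.171, 0.341 and 0.0914% of reads in vehicle glands and 0.0851, 0.0148 and 0.0424% in TGFBRi glands. In the tumor libraries these markers overlapped, at 0.00102 to 0.00854% in vehicle and 0.00815 to 0.0237% in TGFBRi. Their part in the RBP7 difference was not tested. AQP5 differed by −0.01 in the gland (−1.20 to 1.18) and PRKCH by 0.82 (−0.32 to 1.96). CNR2 differed by −3.46 in the gland (−6.41 to −0.50) against 4.01 in the tumor, with an interaction adjusted p of 0.387. Its gland groups overlapped and had few reads, at 21, 20 and 3 in vehicle and 0, 0 and 8 in TGFBRi. The tumor and gland tables were scaled separately, so only their differences are compared.

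The genes that varied most within the groups, with a mean of at least 50 reads, were MCPT2, RT1-BB, CHAC1, CAPN13, CSF2, MS4A2, IL12B, HOXC10, MPO and TPSB2. Several are genes of mast cells and other immune cells. MCPT2, a mast cell protease, ran from 0 to 468 normalized read counts in vehicle and 21.4 to 2433 in TGFBRi, with an SD within groups of 4.33 on the log2 scale. The median SD over all genes was 0.73. RT1-BB, a class II histocompatibility gene, was at 6869, 3564 and 5.1 in vehicle and 203, 2347 and 3585 in TGFBRi, although its partner RT1-BA stayed at 1599 and 2906 in the 2 low rats. RT1-BB was low in vehicle 3 and TGFBRi 1 in the CD45+ libraries of the same tumors too, at 76.8 and 145. The other rats were at 3705 to 59956 there. In gland luminal cells vehicle 3 and TGFBRi 1 were at 0.9 and 1.3, and TGFBRi 2 was at 0. The cause was not tested. CHAC1, a gene of the unfolded protein response, was at 1607 in TGFBRi 1 and 0 in TGFBRi 3, and CSF2, which encodes GM-CSF, was at 1467, 349 and 41.9 in vehicle and 2217, 365 and 2.5 in TGFBRi.

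Other lists overlapped between the groups in most members. Interferon-stimulated genes were lower in 14 of 18, with a median log2 difference of −0.65 that ran from −1.11 without vehicle 2 to −0.06 without vehicle 3. Antigen presentation genes had a median of 0.91, with 7 of 9 higher, which ran from 0.27 without vehicle 2 to 1.61 without vehicle 1 and was 0.24 without vehicle 3 and TGFBRi 3. Of the epithelial chemokines and acute phase genes, CSF3, which encodes G-CSF, was at 9680, 5519 and 2299 normalized read counts in vehicle and 4416, 1076 and 113 in TGFBRi (log2 difference −2.61, −5.08 to −0.14), which was −1.19 without TGFBRi 3, while 7 of 14 members were higher. Hypoxia and glycolysis genes had a median of −0.14 (0.11 without vehicle 1) and Wnt pathway genes one of 0.04 (−0.14 without vehicle 3, 0.36 without TGFBRi 3). Immediate early genes, which also respond to tissue dissociation, were lower in 11 of 13 with a median of −0.27. In that list TGFBRi 1 was the low rat, with EGR1 at 3219 against 9141 to 29611 in the other 5 rats, and without it the median turned to 0.51. Heat shock chaperones had a median of 0.22, from −0.28 without vehicle 1 to 0.73 without vehicle 2.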

How the data were processed

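Bulk RNA-seq libraries of EPCAM+ tumor cells (6) were analysed, with CD45+ libraries of the same tumors and 9 gland luminal libraries of NMU-treated SD rats beside them. The deposited values are signal: read counts by gene symbol that the authors divided by a size factor for each library. Per the submitters' processing notes and the study's methods, STAR 2.5.1b, HTSeq and DESeq2 1.30.1 on rn6 were used. Every value above 0 in these libraries was a whole multiple of 1 step per library (100% of 257064 values, tolerance 0.001), so reads were recovered. For 1 luminal library, not of these 6 rats, the step lay near 1 and is less certain. Shares of reads are not per gene length.

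Genes whose values sum to at least 10 were tested by limma 3.58.1 (trended prior, robust) on log2(normalized read count + 1), a scale that understates changes of low genes. Unless a tool is named, differences and 95% intervals are from this fit. Benjamini-Hochberg adjusted p of 0.05 or less was called. edgeR 4.0.16 (quasi-likelihood, TMM) and DESeq2 1.42.0 were run on recovered reads, in R 4.3.3 with statmod 1.5.0. Python 3.11.15, numpy 2.4.6, pandas 2.3.3 and matplotlib 3.10.9 made tables and plots. Adjusted p-values that DESeq2 withheld were left out. Fits were tested on simulated data. The tumor was compared with the gland by an interaction over the same 6 rats.

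Named genes were the 10 per direction with the largest log2 difference among those with an unadjusted p of 0.05 or less, at least 50 mean reads and groups without overlap, every gene called by DESeq2, list members with the lowest p or defining a list, and the 10 of largest SD within groups. The comparison and lists were chosen with earlier results of these data known. The B cell, mast cell and collagen lists, the fits without vehicle 3 and TGFBRi 3 together and the DESeq2 leave-outs were added after seeing the data. Of the TGFβ target list, 1 gene is counted in the list's totals but not reported by name here.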

Additional observations from a re-analysis of the deposited data

How the results depend on the processing

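Limma called 0 genes under each planned setting and without each rat. With all 6 rats edgeR also called 0 and DESeq2 called 6. Counts at an unadjusted p of 0.05 or less ranged from 201 to 715 without 1 rat (715 without TGFBRi 1, 422 without vehicle 1) around 278, with 547 by DESeq2, and without vehicle 3 and TGFBRi 3 limma called 0 and listed 393. DESeq2 called 1 to 28 genes without 1 rat, 26 without vehicle 3 and TGFBRi 3, and 6 with the deposited size factors. The interaction of tumor and gland is paired by rat, and with the replicate block it called 0 genes with 1264 at an unadjusted p of 0.05 or less, and the block changed no call. Deviations of a rat's 2 libraries correlated at −0.281 to 0.079, with 1 of 6 tumor libraries matching its own gland library best. Leaving out a rat gave 0 calls and 630 to 2423 genes at an unadjusted p of 0.05 or less.

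Of 123 genes examined one by one, 27 turned direction under at least 1 alternative. PROCR was at 0.12 by DESeq2, 0.10 by edgeR, −1.25 to 0.29 without 1 rat (0.29 without TGFBRi 3) and 0.32 without vehicle 3 and TGFBRi 3. By DESeq2 and by edgeR, CAPN13 was at 0.89 and 0.96, CHAC1 at 2.73 and 2.68, COL3A1 at −0.20 and −0.18, CSF2 at 0.53 and 0.55, ESR1 at −0.05 and −0.07, RT1-BB at −0.76 and −0.76 and TGFB1 at 0.02 and 0.02, IL12B was at −0.01 by DESeq2, and CHAC1 was at 0.15 with a pseudocount of 5. Without 1 rat, CDKN1B ranged from −0.02 to 1.23, COL5A2 from −0.01 to 1.29, CAPN13 from −3.19 to 1.04, CDKN1A from −0.69 to 0.09, CHAC1 from −3.22 to 2.10, COL1A1 from −0.97 to 0.76, COL3A1 from −0.94 to 1.39, CSF2 from −2.97 to 1.68, CSN1S1 from 0.00 to 0.83, DCN from −0.48 to 1.01, ESR1 from −0.29 to 0.80, HRAS from −0.07 to 0.41, MPO from −1.39 to 2.26, RT1-BB from −2.05 to 3.02, TGFB1 from −0.32 to 0.29, TGFBR1 from −0.48 to 0.05, TPSB2 from −0.14 to 3.69 and TRH from −2.70 to 0.66. MGMT, CPA3, ADIPOQ, IL12B, KRT14, MCPT2, MS4A2 and TGFB2 kept their direction without 1 rat, at 0.35 to 1.53, 0.98 to 4.47, 0.24 to 1.23, 0.41 to 4.43, 0.00 to 1.5, 0.41 to 5.35, 0.42 to 4.64 and 0.05 to 0.38. Without vehicle 3 and TGFBRi 3, MGMT was at −0.10, CPA3 at −0.25, CDKN1B at −0.05, ADIPOQ at −0.17, CHAC1 at 2.92, COL3A1 at −0.36, CSF2 at 0.33, DCN at −0.57, KRT14 at −0.20, MCPT2 at −0.82, MS4A2 at −0.78, RT1-BB at −2.84, TGFB1 at 0.11, TGFB2 at −0.07 and TPSB2 at −1.42, while ESR1, CSN1S1 and TRH, at 0.99, 0.98 and −2.77, kept theirs. Causes were not tested. Of 34 list medians, 16 turned direction in at least 1 fit without 1 rat. List medians moved by over 1 SD between rats in 19 cases and by less in 491, among them adipocyte genes, 1.77 by DESeq2 and 2.42 at a mean of at least 50 reads against 1.09, and antigen presentation genes, 0.24 by DESeq2 and by edgeR against 0.91. Precision was limited by 3 rats a group.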

Other observations

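Without vehicle 3 and TGFBRi 3, DESeq2 called 26 genes, 4 higher and 22 lower in TGFBRi, where limma called 0 (smallest adjusted p 0.197). The genes named here were picked after their values were seen. MMP9, a gelatinase that degrades matrix, was at 139 and 154 normalized read counts in vehicle 1 and 2 and 1760 and 1052 in TGFBRi 1 and 2 (DESeq2 log2 difference 3.29, adjusted p = 1.26e-06), but at 388 in vehicle 3 and 78.1 in TGFBRi 3, so that limma on all 6 rats gave 1.37 (−0.86 to 3.61). TRH, which encodes thyrotropin-releasing hormone, was at 1732 and 1692 in vehicle 1 and 2 and 263 and 238 in TGFBRi 1 and 2, with 15.4 in vehicle 3 and 290 in TGFBRi 3. MMP11, the stromelysin made by tumor fibroblasts, was at 4768 and 3798 against 214 and 879, with 151 in vehicle 3 and 1169 in TGFBRi 3, and limma on all 6 rats gave −1.21 (−3.84 to 1.41). These differences rest on 2 rats a group, and the 2 rats were left out after their values were seen.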
